A study of Caenorhabditis elegans with 2 samples.

Results

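The regions described were the loci of the nuclear tRNA genes on the autosomes of Caenorhabditis elegans, the gene body with 200 bp on each side. All 336 genes that Ensembl annotates as tRNA on the 5 autosomes were taken, out of 612 nuclear tRNA genes and 46890 annotated nuclear genes. The rule used the annotation and no measured value, but it was set with earlier results of these data known. The measurement was chromatin immunoprecipitation followed by sequencing (ChIP-seq) with an antibody against GFP. Both libraries came from whole L4 larvae of strain OP692, aged 48 hours and grown from bleached, L1-starved animals. These animals carried the transgene wgIs692, which holds T26A8.4 tagged with TY1, EGFP and 3xFLAG and a wild-type unc-119 copy, in the unc-119(tm4063) background. The reference annotation describes T26A8.4 only as a protein with a C3H1-type domain. The 2 libraries are labelled as biological replicates and form 1 group, so there was no contrast between conditions. The protein measured was the product of a transgene, and whole animals mix all tissues, so the cells in which a locus was occupied cannot be told apart. A peak list holds no marker expression, and the labelled stage was not checked against the data.

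Genes for tRNAs are short and are transcribed by RNA polymerase III. Their promoter lies inside the gene: the A box and the B box are bound by the factor TFIIIC, which places TFIIIB just upstream of the start, and a run of T bases after the gene ends transcription. Many amino acids are served by several tRNAs, and in worms many tRNA genes exist as identical copies scattered over the genome. Copies share the internal promoter but differ in the DNA around them.

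The sequences shown are those on which the results turn. They come from the RefSeq WBcel235 genome, each is written 5′ to 3′, and strand and position are given. The strongest autosomal tRNA locus was a pair of identical proline tRNA genes, W09D6.t2 and W09D6.t1, that point away from each other inside an intron of rsa-2, a gene for a centrosomal protein. The stretch III:11066848-11067098 is shown on the plus strand, with both genes in capitals.
W09D6.t2 and W09D6.t1: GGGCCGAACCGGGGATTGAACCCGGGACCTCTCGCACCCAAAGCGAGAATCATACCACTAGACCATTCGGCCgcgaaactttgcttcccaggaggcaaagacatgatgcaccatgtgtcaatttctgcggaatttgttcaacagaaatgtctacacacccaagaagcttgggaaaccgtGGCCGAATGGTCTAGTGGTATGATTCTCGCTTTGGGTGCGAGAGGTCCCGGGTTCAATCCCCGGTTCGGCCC
The same proline tRNA gene was present elsewhere with and without a peak. T22F3.t1 (V:3582260-3582421, plus strand) was the bound copy of lowest signal and R11G10.t2 (V:13507173-13507334, minus strand) had no listed peak. Each is shown with 60 bases before and 30 after the gene, and the capitals mark the gene, which is the same in both.
T22F3.t1: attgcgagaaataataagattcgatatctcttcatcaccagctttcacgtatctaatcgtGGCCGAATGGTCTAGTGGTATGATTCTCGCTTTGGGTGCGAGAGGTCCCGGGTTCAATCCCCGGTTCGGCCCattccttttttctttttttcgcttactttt
R11G10.t2: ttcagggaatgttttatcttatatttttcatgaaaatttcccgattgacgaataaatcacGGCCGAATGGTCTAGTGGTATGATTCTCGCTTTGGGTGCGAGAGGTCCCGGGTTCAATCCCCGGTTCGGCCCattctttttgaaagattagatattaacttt
Other genes named in the results are shown with the core of the B box in capitals, defined here as GTTCNANNC. T23F1.t1 (lysine, V:15465086-15465158, plus) and T03E6.t1 (glutamine, V:16592237-16592308, minus) were among the strongest, and Y7A9D.t2 (alanine, IV:16389211-16389282, minus) was the strongest of its chromosome.
T23F1.t1: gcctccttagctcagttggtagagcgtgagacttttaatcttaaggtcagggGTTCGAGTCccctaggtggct
T03E6.t1: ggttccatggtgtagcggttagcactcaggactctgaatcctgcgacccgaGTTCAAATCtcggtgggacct
Y7A9D.t2: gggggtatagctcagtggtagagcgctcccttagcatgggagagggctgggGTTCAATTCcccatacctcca
F22B7.t2 (serine, III:8646167-8646248, plus) had the lowest combined signal among bound genes. F44A2.t1 (alanine, V:9318202-9318273, plus) and Y69A2AR.t2 (glutamate, IV:2639809-2639880, minus) had a strong peak in replicate 1 only, and the latter has no core and so no capitals.
F22B7.t2: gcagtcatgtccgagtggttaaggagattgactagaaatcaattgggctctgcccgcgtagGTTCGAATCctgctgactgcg
F44A2.t1: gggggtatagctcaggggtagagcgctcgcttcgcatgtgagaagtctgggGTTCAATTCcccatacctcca
Y69A2AR.t2: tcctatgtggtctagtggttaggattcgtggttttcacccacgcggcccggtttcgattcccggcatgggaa

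A gene is called bound below when the summit of a peak in the combined thresholded list, made by the authors from the replicates together, lay in its window. By this rule 168 of 336 autosomal tRNA genes were bound (50%, 95% Wilson interval 44.7 to 55.3). Windows of the same width, 472 bp, running downstream from 200 bp before the starts of autosomal protein-coding genes held a summit in 3.29% of 17242 cases. Of all other autosomal genes, taken with the same flanks, 4.99% held one. The tRNA windows covered 0.185% of the autosomal sequence and held 150 of 2439 autosomal summits (6.15%). Genes that share a summit or a sequence are not independent, and the intervals given here cover counting error only.

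The replicates' own thresholded lists gave similar shares. Replicate 1 had a summit at 137 genes (40.8%, against 2.28% of the coding start windows). Replicate 2 had one at 136 genes (40.5%, against 2.52%). At 110 genes (32.7%, against 1.59%) both replicates had one. Of the 168 bound genes, 109 had a thresholded summit in both replicates, 20 in replicate 1 only, 20 in replicate 2 only and 19 in neither. The combined list therefore called more genes than either replicate did alone.

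The ranked lists, which also hold weak regions, separated the unbound genes further. A ranked summit of replicate 1 lay in 245 tRNA windows (72.9%, against 31.6% of the coding start windows), one of replicate 2 in 226 (67.3%, against 30.3%) and one of each in 210 (62.5%, against 20.4%). All 168 bound genes had a ranked summit in at least 1 replicate, and 161 had one in both. Of the 168 unbound genes, 49 (29.2%) had a ranked summit in both replicates, 44 (26.2%) in 1 of them and 75 (44.6%) in neither. The 29.2% stands against 20.4% of all coding start windows, bound or not. At those 75 loci no region was listed in either replicate, although library depth and the treatment of reads from repeated sequence are not known from the files.

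Peak signal, the authors' own score, is compared within a list only. Over the 210 genes with a ranked summit in both replicates the signals of replicate 1 and replicate 2 rose together, with a Spearman rho of 0.82. Over the 110 genes with a thresholded summit in both it was 0.70, and also 0.70 when each shared peak counted for 1 gene (n = 92). These are descriptions across loci, many of which share a peak or a sequence.

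**Figure D1:**
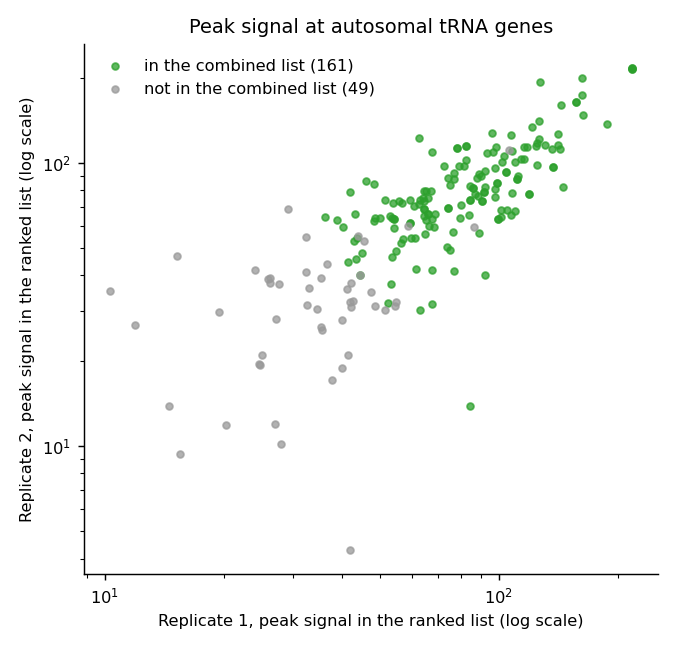
Peak signal of replicate 2 against replicate 1 in the ranked lists (authors' score, log scales), 1 point for each of the 210 autosomal tRNA genes with a ranked summit in both. The 161 bound genes lie mostly at the upper right and the 49 unbound genes mostly at the lower left, and the groups overlap.

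In the combined list the 150 summits in tRNA windows had signals of 3.74 to 448 with a median of 153, and the other 2289 autosomal summits had 2.10 to 1884 with a median of 119.6. The tRNA summits were thus mostly of middle to high rank, with the extremes elsewhere. None of the 100 strongest autosomal summits lay in a tRNA window, and 9 of the strongest 250 did. From the strongest to the weakest quartile of autosomal summits the share in tRNA windows was 8.85%, 8.37%, 5.25% and 2.13%. The highest possible score, 1000, was given to 89.3% of the tRNA summits and 74.6% of the others.

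Summits lay close to the start of the tRNA gene. Measured along the strand of the nearest gene, the median summit was 19 bp downstream of the 5′ end (quartiles -4.75 and 38 bp, 150 summits). Of these, 97 (64.7%) were inside the gene, which makes up 15.3% of a window, 44 (29.3%) were upstream and 9 (6%) downstream. The median was 15.5 bp in replicate 1 and 16.0 bp in replicate 2. Where both replicates had a summit at a gene, the pair of summits was a median of 20.5 bp apart (n = 110).

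**Figure D2:**
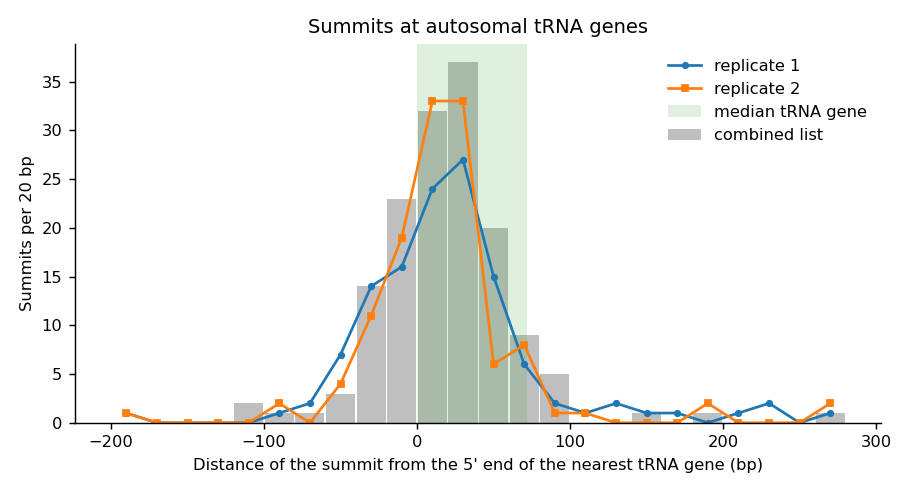
Distance of each thresholded summit from the 5′ end of the nearest autosomal tRNA gene, along the strand of that gene, in 20 bp bins. Grey bars are the 150 combined summits, lines are the replicates, and the green band is a gene of the median length of 72 bp; all peak between the 5′ end and the middle of the gene.

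The 3 strongest signals belonged to closely spaced genes, and the next, from 352 to 323, to genes with no tRNA gene close by. At the proline pair W09D6.t2 and W09D6.t1 the shared summit had a signal of 448 in the combined list, 217 in replicate 1 and 216 in replicate 2, and lay between the genes, 38 bp upstream of the former and 70 bp upstream of the latter. At T23F1.t1 and T23F1.t2, a lysine and a proline tRNA gene between rocf-1 and pqn-71, the shared signal was 420.2, with 218 and 215 in the replicates. At the glycine tRNA genes F49D11.t2 and F49D11.t1 on chromosome I it was 355, with 157 and 164. At all 3 loci the same summit was the strongest in the windows of both genes. Among genes with no tRNA gene close by, the strongest were T03E6.t1 (glutamine) at 352, with 162 and 199.9, F47G6.t1 (arginine, in an intron of spe-15) at 334, with 162 and 174, and M01E5.t1 (lysine) at 331, with 163 and 148. T21B4.t1 (isoleucine, in an intron of the collagen gene col-85) led chromosome II at 323, with 188 and 137. Y7A9D.t2 (alanine), with a histidine tRNA gene 683 bp away, led chromosome IV at 272, with 126 and 139.9.

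The lowest values of 3.74 and above belong to further summits in windows that also held a stronger one; the best signal of a bound gene was at least 77.1. F22B7.t2 (serine) had that value with a score of 855, where the list begins at 830, and its ranked signals of 53.2 and 37.4 in the replicates passed neither threshold. F57G8.t2 and F57G8.t3 (asparagine) shared a summit of 78.8 with a score of 913, also in no replicate's thresholded list. Conversely, F44A2.t1 had a thresholded signal of 157 in replicate 1 and no listed region in replicate 2. It is a single-copy alanine tRNA gene that differs at 3 of 72 bases from a family of 8 alanine genes and at 6 from a family of 15. Y69A2AR.t2 (glutamate, overlapping an exon of mdf-2) had 133 in replicate 1 and nothing in replicate 2, and K02B12.t1 (glutamate, in an intron of zhp-3) had 114 in replicate 2 and nothing in replicate 1. C27A2.t1 (isoleucine), named after its values were seen, had 106 and 111 in the replicates' thresholded lists and a summit in the conservative list, yet none in the combined list.

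Genes with many identical copies were bound more often than single-copy genes. Copies were counted as nuclear tRNA genes with exactly the same gene sequence. Of 86 autosomal genes with 1 copy, 27 were bound (31.4%, 22.6 to 41.8). The share was 45.1% of 51 genes with 2 to 5 copies, 57.9% of 114 with 6 to 15 and 61.2% of 85 with more than 15. Genes with more than 1 copy were bound in 141 of 250 cases (56.4%, 50.2 to 62.4), a difference of 25 percentage points from single-copy genes (12.9 to 35.7). In the replicates' own lists the difference was smaller, with 32.6% against 43.6% in replicate 1 and 29.1% against 44.4% in replicate 2, and for replicate 1 the interval of the difference, -1.02 to 21.9 points, included 0. With the gene body alone as the window it was 19.8% against 32.0%. Once bound, single-copy genes had a similar signal, with medians of 166 and 157. The strongest single-copy gene was F57F5.t1 (isoleucine, chromosome V; named after its values were seen), with 323 in the combined list, 144 in replicate 1 and 160.3 in replicate 2.

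Reads from inside identical genes cannot be placed by sequence alone, and no source used here says how the authors treated them. The share of 31-base words in a window that occur at only 1 place in the genome was therefore computed after the peak values were seen. Its median was 87.4% for bound and 87.8% for unbound genes, and 10 genes, 2 of them bound, had at most 50%. From the least to the most unique quartile of genes the bound share was 54.1%, 51.2%, 59% and 35.4%. Multi-copy genes were 68 of 85, 86 of 86, 79 of 83 and 17 of 82 genes in those quartiles. The low share in the most unique quartile thus cannot be told apart from the lower share of single-copy genes. Whether the share changed with uniqueness at equal copy number was not tested. Of the 28 genes with under 70% unique words 8 were bound (28.6%, 15.3 to 47.1). A ranked summit was present at 9 of them (32.1%) in replicate 1 and at 9 in replicate 2. The lower quartile of unique words was 73.4% for the 75 genes in neither ranked list and 84.0% for bound genes.

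Within families of identical genes, some copies were bound and others not. In all 23 families with at least 5 autosomal copies both kinds occurred, and 111 of their 189 genes were bound (58.7%). The family of 29 glycine tRNA genes had 18 autosomal copies, of which 14 were bound, and the family of 25 lysine genes had 15, of which 12 were bound. The family of 18 asparagine genes had 6 of 13 bound, with 2 in the list of replicate 1 and 1 in that of replicate 2. The family of 7 leucine genes, all autosomal, had 2 bound. In the tryptophan family of 10 genes, described after its values were seen, 4 of 6 autosomal copies were bound. They include sup-5, a locus known from amber suppressor mutations, with 239 in the combined list, 124 in replicate 1 and 115 in replicate 2, and rtw-6 with 145, 64.7 and 73.4. The tryptophan genes sup-24 and sup-29 had no summit in any list examined.

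**Figure D3:**
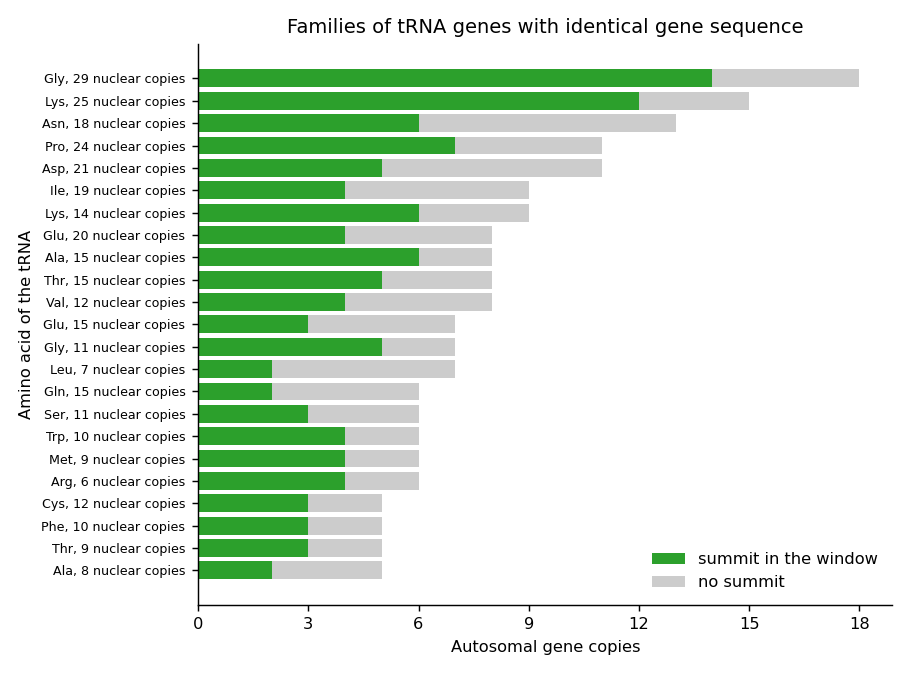
Autosomal copies with a combined summit (green) and without one (grey) in each of the 23 families of identical tRNA genes with at least 5 autosomal copies. Both colours appear in every bar, from 14 of 18 glycine copies to 2 of 7 leucine copies.

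The proline family, with 24 nuclear copies of which 11 are autosomal, held the strongest locus and copies with no signal. The 7 bound copies had combined signals of 448, 448, 420.2, 205, 175, 144 and 119.7, and each was in the thresholded lists of both replicates. Beside those given above, ZK970.t2 had 119 in replicate 1 and 77.4 in replicate 2, ZK970.t1 had 90.3 and 73.5, T22F3.t2 had 74.4 and 69.5, and T22F3.t1 had 59.3 and 61.4. Of the 4 unbound copies, Y71H2AM.t1 had a ranked signal of 24.6 in replicate 1 only. F02H6.t1, R11G10.t2 and R11G10.t1 had no listed region in either replicate, the latter pair in introns of avr-15, a glutamate-gated chloride channel gene. The groups did not overlap in 2 properties looked at after the values were seen, and these are not independent. All 7 bound copies had another tRNA gene within 1000 bp and 37.2 to 49.2% G and C bases in the 200 bp on both sides. That neighbour was 66 to 168 bp away, so part of it was counted in those flanks. For T23F1.t2 and ZK970.t2 the combined summit lay inside the neighbouring gene. All 4 unbound copies were alone, with 30.8 to 32.0%. Among all 336 autosomal tRNA genes, 69 of 101 with such a neighbour were bound and 99 of 235 alone. The share of unique words overlapped, at 60.9 to 82.1% for the bound and 67.2 to 87.8% for the unbound copies.

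Over all autosomal tRNA genes the GC content of the flanks, also looked at after the values were seen, went with binding. Bound genes had a median of 39.8% G and C in the flanks and unbound genes 36.1%. From the lowest to the highest quartile of flank GC the bound share was 19 of 85 (22.4%, 14.8 to 32.3), 39 of 83 (47.0%, 36.6 to 57.6), 63 of 89 (70.8%, 60.6 to 79.2) and 47 of 79 (59.5%, 48.5 to 69.6). The third quartile was the highest in all 3 thresholded lists, at 60.7% in replicate 1 and 57.3% in replicate 2. In coding start windows at the same boundaries the shares were 1.72%, 4.09%, 4.96% and 7.55%. Of the 101 genes with another tRNA gene within 1000 bp, 44 had one reaching into their flanks, and these had a median flank GC of 40.4%, against 37.8% for the other clustered genes. Among genes that stood alone those above the median flank GC were bound in 58.9% of 112 cases and those at or below it in 26.8% of 123. The split was 45.2% against 18.2% among single-copy genes, 72.2% against 40.3% among the others, and 70.3% against 45.5% within the 23 large families. Whether GC content affected the recovery of reads in these libraries was not tested.

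**Figure D4:**
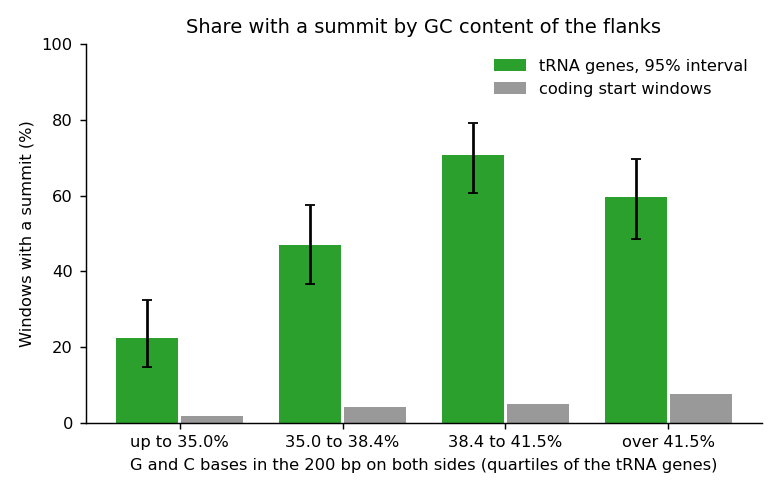
Share of windows with a combined summit by quartile of G and C content in the 200 bp on both sides, for autosomal tRNA genes (green, bars with 95% Wilson intervals) and protein-coding start windows split at the same boundaries (grey). The tRNA share rises from 22.4% to 70.8% and is 59.5% in the top quartile.

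Genes with another tRNA gene nearby were bound more often by the window rule, and this depended on the width of the window. A cluster was a run of genes with at most 1000 bp between neighbours; 46 clusters held 101 genes, at most 4 each. In clusters 69 of 101 genes were bound (68.3%, 58.7 to 76.6), and of 235 genes standing alone 99 (42.1%, 36.0 to 48.5). With the gene body alone as the window the shares were 27.7% and 29.4%, in the opposite order. Counting only the strongest summit of each bound gene, the clusters held 47 distinct summits, or 46.5 per 100 genes, and the genes standing alone 42.1 per 100. Clusters also held more multi-copy genes, 86.1% against 69.4%. Among the 46 clusters 24 had every gene bound, 13 some and 9 none.

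Orientation described many of the shared summits, and was examined after the values were seen. In 22 cases a summit was the strongest in the windows of a pair of neighbouring genes, and windows up to 400 bp apart overlap, so such sharing follows in part from the rule. Of 17 divergent pairs within 400 bp, 15 shared a summit, which lay between the genes in 9. Of 4 convergent pairs 2 shared one, between the genes in 0, and of 8 tandem pairs 5 did, between the genes in 1. In the largest clusters, C12C8.t5, t2, t4 and t3 on chromosome I are 4 glycine genes with 2 summits, of 166 and 107. Y65A5A.t1 to t4 on chromosome IV are 2 alanine genes with signals of 195 and 178, a valine gene that was not bound and a histidine gene with 157. The valine gene, Y65A5A.t3, did have a summit in the conservative list, with a signal of 107 and a score of 938. C17D12.t1 to t3 on chromosome I are 2 lysine genes with 117 and 113 and a leucine gene that was not bound.

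The share bound differed among chromosomes. It was 33 of 66 on I (50%, 38.3 to 61.7), 35 of 57 on II (61.4%, 48.4 to 72.9), 40 of 64 on III (62.5%, 50.3 to 73.3), 32 of 71 on IV (45.1%, 34.0 to 56.6) and 28 of 78 on V (35.9%, 26.1 to 47.0). The highest and lowest, III and V, taken as the extremes, differed by 26.6 percentage points (10.1 to 41.2), and were 50% and 25.6% in replicate 1 and 50% and 28.2% in replicate 2. Neighbours in that order had overlapping intervals. The lowest share was on V in all of these lists, but II was above III in replicate 2 (52.6%) and in the conservative list (63.2% against 53.1%). Among multi-copy genes V was lowest, at 43.1%, and III highest, at 68.0%. Among the fewer single-copy genes I was lowest, with 1 of 12, and II highest, with 52.9%. In the middle 50% of each chromosome 51.8% were bound and in the outer 50% 48.2%. Coding start windows were not split by chromosome, so whether the differences among chromosomes are particular to tRNA genes was not tested.

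For genes near a protein-coding start, the difference in share bound from the other genes depended on the list. Of 100 genes whose window overlapped a coding promoter window, 1000 bp upstream to 200 bp downstream of the start, 55 were bound (55.0%, 45.2 to 64.4), and of the other 236 genes 113 (47.9%, 41.6 to 54.2). The difference of 7.12 percentage points had an interval of -4.52 to 18.4, which includes 0. With the conservative list the shares were 56% and 44.1%, a difference of 11.9 points with an interval of 0.263 to 23.1, just above 0. Genes in introns of protein-coding genes were bound in 100 of 188 cases (53.2%, 46.1 to 60.2), with 50.9% on the strand of the host gene and 57.1% on the opposite strand. Intergenic genes were bound in 64 of 139 cases (46.0%, 38 to 54.3) and genes overlapping an exon in 4 of 9.

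**Figure D5:**
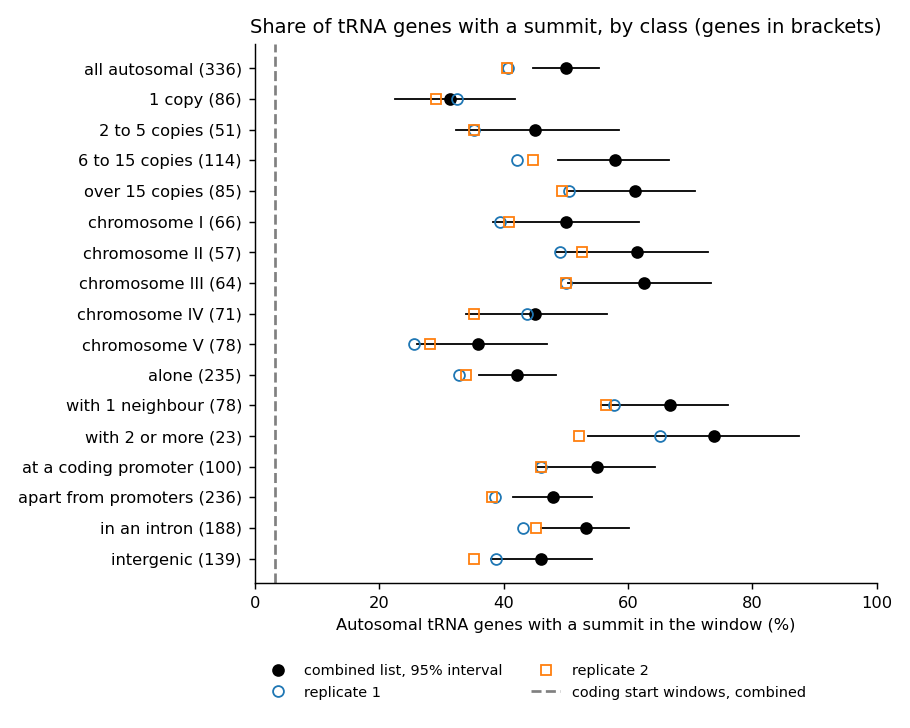
Share of autosomal tRNA genes with a summit by class, with the number of genes in brackets; black points are the combined list with 95% Wilson intervals, open symbols the replicates, and the dashed line marks the 3.29% of coding start windows. Every class lies above the dashed line, from 31.4% for single-copy genes to 73.9% for genes with 2 or more neighbours.

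By amino acid, the share bound ran from 13 of 20 threonine genes (65.0%, 43.3 to 81.9), 18 of 28 lysine genes (64.3%, 45.8 to 79.3), 14 of 22 proline genes (63.6%) and 21 of 35 glycine genes (60%) down to 7 of 21 serine genes (33.3%, 17.2 to 54.6) and 2 of 11 tyrosine genes (18.2%, 5.14 to 47.7). The bound tyrosine genes, named like K11H12.t1 after their values were seen, were T22F7.t1, at 189 with 97.9 and 75.7 in the replicates, and ZK1067.t1, at 249 with 107 and 125. The only selenocysteine tRNA gene, K11H12.t1, was bound at 107, with 64.9 in replicate 1 and a ranked signal of 55.9 in replicate 2. Both genes without an assigned amino acid were unbound. Genes of 72 or 73 bp were bound in 135 of 234 cases (57.7%) and genes over 80 bp, mostly leucine, serine and tyrosine, in 21 of 68 (30.9%). That split, looked at after the values were seen, was 61.5% against 30.8% among multi-copy genes and 38.5% against 31.0% among single-copy genes.

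The internal promoter letters did not separate bound from unbound genes, and within families of identical genes they could not. The 23 large families, with 189 genes, each held bound and unbound copies with the same letters. An exact B box, GGTTCGA, any base, then TCC on the gene's strand, was in 73 bound and 73 unbound genes (43.5% of each), and in 0.0116% of 72 bp windows at coding starts searched on both strands. An exact A box, TGGC, 2 bases of any kind, then AGTGG, was in 10.1% of bound and 10.7% of unbound genes, against 0.0290% of those windows. The shorter core GTTCNANNC was in 97.0% of bound and 92.9% of unbound genes, against 2.58%; none of 8 single-copy genes without it was bound (Wilson interval 0 to 32.4%), but 5 of 9 multi-copy genes without it were (55.6%, against 56.4% with it). A run of TTTT within 30 bp after the gene followed 99.4% of bound and 98.2% of unbound genes, against 25.9%. The repeat GAGAGAGA was in the windows of 9 bound and 4 unbound genes (3.87% of all) and of 4% of coding start windows. The core, the T run and the repeat were chosen after values were seen, and a match is no evidence of a bound site.

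The snoRNA and snRNA genes of the autosomes gave lower shares with the same rule, and the interval for tRNA genes on X overlapped that of the autosomes. On chromosome X 116 of 276 tRNA genes were bound (42.0%, 36.4 to 47.9), with 41.7% in replicate 1 and 35.9% in replicate 2, so the order of X and the autosomes differed between the replicates. Autosomal snoRNA genes, which guide the modification of other RNAs, were bound in 81 of 313 cases (25.9%, 21.3 to 31.0). Autosomal snRNA genes, which encode RNAs of the spliceosome, were bound in 38 of 126 (30.2%, 22.8 to 38.7). The gaps were narrower in other lists. Both replicates had a thresholded summit at 32.7% of autosomal tRNA, 21.1% of snoRNA and 27.0% of snRNA genes. Both had a ranked summit at 62.5%, 55.9% and 45.2%, so many ranked summits were not particular to tRNA loci. The strongest autosomal tRNA signal, 448, was below the strongest on X (572), at snoRNA genes (867) and at snRNA genes (1217). The median at bound autosomal tRNA genes, 158, was also below the 193, 253 and 230.1 of those sets. In the combined list the share on X was 31.6% of single-copy genes and 56.3% of genes with over 15 copies, and in replicate 1 28.1% and 52.1%. In replicate 2 it was 31.6% and 35.2%, so the rise on X was not seen in that list.

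Genes for RNA polymerase III and its factors and for aminoacyl-tRNA synthetases had shares whose intervals included that of all protein-coding genes. A promoter summit was present at 7.06% of 19973 protein-coding genes. Of 19 genes for RNA polymerase III and its factors, which here include the unbound snpc genes, 2 were bound (10.5%, 2.94 to 31.4). They were rpac-19, a subunit shared with RNA polymerase I, with 222 in the combined list, 121 in replicate 1 and 94.9 in replicate 2, and rpc-2, a large catalytic subunit, with 124 and no thresholded summit in either replicate. Of 31 aminoacyl-tRNA synthetase genes, whose products load tRNAs with amino acids, 2 were bound (6.45%, 1.79 to 20.7). These were ears-2 for glutamate, with 297, 150 and 140.1, and aars-1 for alanine, with 144 and a thresholded signal of 75.1 in replicate 2 only.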

How the data were processed

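Of 8 deposited peak lists 7 were used. They are on ce11, which is WBcel235, and were made from alignments and thresholded or ranked by irreproducible discovery rate, per the file listings; no source used here names the aligner or caller. Peak signal and integer score are scores deposited by the authors, and the deposited lists give q and discovery rate as −log10, which were not printed. The summit offset in bp is also a deposited value; the summit was the interval start plus this offset. Read depth is unknown, and no control library was used here. The thresholded lists hold scores of at least 830.

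Summits were placed on Ensembl release 115 genes and the RefSeq genome; all 336 genes matched RefSeq. A window with a summit counts as bound. There was no test, because the design has 1 group; shares have 95% Wilson intervals, and differences have score intervals built from them. Named genes were the 10 strongest also thresholded in both replicates, the strongest of each autosome, the 3 largest clusters, the 3 weakest bound, the 3 unbound of highest ranked score and bound pathway genes; others are said to be chosen later. The members, lists and rules were chosen with earlier results of these data known. Alternatives were other lists, flanks, gaps and promoter windows, overlap of intervals, 1 gene per cluster or sequence, and each replicate alone. The tools were pandas 2.3.3 and NumPy 2.4.6 under Python 3.11.15, with SciPy 1.17.1 and figures by Matplotlib 3.10.9, and the counting was tested on simulated data.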

Additional observations from a re-analysis of the deposited data

How the results depend on the processing

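The share of bound autosomal tRNA genes, 50%, was 36.9% with the 50% of combined peaks of highest signal, 28.9% with the gene body alone, 37.2% with 1 gene for each identical sequence and 40.5 to 40.8% when a replicate was left out; 10 other settings gave values within its interval. The excess of multi-copy over single-copy genes, 25 percentage points, was 12.2 with the gene body alone and 11.0 to 15.3 when a replicate was left out. The excess of clustered genes, 26.2 points, was 37.6 with a gap of 500 bp, 21.4 to 26.6 when a replicate was left out, and turned to -1.64 with the gene body alone, where summits between neighbours do not count. The split by flank GC, 31.0 points, ranged from 29.8 to 35.1 when a replicate was left out. The gene body alone for copy number and clustering, all settings for flank GC, and 2 of the other 10 settings (the genes with most unique words, 47.3%, and genes with the B box core, 51.1%) were chosen after seeing the data. No paired analysis was possible because there is 1 group. Library depth is unknown, so an unlisted locus is one where no region was detectable in these lists.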
